A study of Mus musculus with 2 samples.

Results

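Rtp4, Ifi27l2a, Xaf1, Lgals3bp, Rsad2, Cmpk2, Ifi44 and Rnf213 are 8 interferon-stimulated genes of 32285 genes listed in droplet single-cell RNA matrices of mouse brain. They were taken by symbol, as genes reported to be raised in microglia of the library labelled KO against the library labelled WT, so their difference in microglia is a description and carries no test. The KO library came from untreated C57BL/6J mice without CD200R1, a receptor that restrains myeloid cells, and the WT library from untreated wild-type C57BL/6J mice. The mice of both groups were 18 months old. Their brains were rinsed with ice-cold saline through the heart and dissociated, and cells carrying CD11b, a surface integrin of myeloid cells, were enriched with magnetic particles before 10x Genomics 3′ library preparation. The labels give neither the number of mice behind each library nor the exons removed in the knockout. With 1 library per group there was no replicate check and no test: intervals are 95%, and cover counting error only.

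Type I interferons signal through the receptor pair Ifnar1 and Ifnar2 and the kinases Jak1 and Tyk2 to transcription factors. These bind the interferon-stimulated response element (ISRE) in promoters and switch on a shared set of antiviral genes, in microglia as in most other cell types. Type II interferon acts through another element, the gamma-activated site (GAS), and the gene sets of both overlap. Among the 8 genes, Rtp4 encodes a chaperone that carries G protein-coupled receptors to the cell surface, and in mice it has been described as a brake on the interferon response. Ifi27l2a encodes a small hydrophobic protein of the ISG12 family, and Xaf1 an antagonist of the apoptosis inhibitor XIAP. Lgals3bp encodes a secreted glycoprotein that binds galectin-3, and Rnf213 a very large ATPase and ubiquitin ligase known in humans as the main susceptibility gene of moyamoya disease. Rsad2 (viperin) makes a chain-terminating analog of CTP, and Cmpk2 is a mitochondrial nucleotide kinase. Ifi44 is named for its induction by interferon.

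The genes lie on 4 chromosomes of GRCm38 (GENCODE vM21, 1-based positions). Rtp4 (ENSMUSG00000033355) is at 23520291 to 23614222 on the plus strand of chromosome 16, and Ifi44 (ENSMUSG00000028037) at 151730922 to 151749960 on the minus strand of chromosome 3. Chromosome 11 carries Xaf1 (ENSMUSG00000040483) at 72301629 to 72313733 on the plus strand, Lgals3bp (ENSMUSG00000033880) at 118392751 to 118402092 on the minus strand and Rnf213 (ENSMUSG00000070327) at 119393100 to 119487418 on the plus strand. Chromosome 12 carries Ifi27l2a (ENSMUSG00000079017) at 103442167 to 103443680 on the minus strand. Rsad2 (ENSMUSG00000020641) is at 26442746 to 26456452 on the minus strand of chromosome 12 and Cmpk2 (ENSMUSG00000020638) at 26469204 to 26479837 on the plus strand, so the pair is transcribed away from each other with starts 12752 bases apart. The span of Rtp4 overlaps Masp1 on the opposite strand and Gm45338 on the same strand, and that of Rnf213 overlaps A930037H05Rik on the opposite strand. Whether the authors' counting used strand is not given in the sources used here, so reads of these overlapping genes may not be fully separate.

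Promoter sequences were shown for the members with a matching interferon motif upstream of the start, since that is the element through which the pathway acts. RefSeq promoters (GRCm38.p6, 250 bases before to 50 after the start) matched 6 of the 8 genes, all but Rtp4 and Ifi27l2a. Both strands were searched for GAAANN followed by GAAA, the ISRE core, for AANNGAAA, the shorter site of interferon regulatory factors that also lies inside an ISRE, and for TTCNNNGAA, the GAS. In the 90-base stretches below, written 5′ to 3′ on the gene's strand, capitals mark every motif letter, and a motif on the other strand reads as TTTC rather than GAAA.
Xaf1, chr11:72301539-72301628, plus strand: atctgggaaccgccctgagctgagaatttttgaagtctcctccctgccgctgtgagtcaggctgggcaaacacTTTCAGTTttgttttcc
Lgals3bp, chr11:118401960-118402049, minus strand: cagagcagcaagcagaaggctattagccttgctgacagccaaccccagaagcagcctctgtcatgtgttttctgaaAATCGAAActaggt
Rsad2, chr12:26456531-26456620, minus strand: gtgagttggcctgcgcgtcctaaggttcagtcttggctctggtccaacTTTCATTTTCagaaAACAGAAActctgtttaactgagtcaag
Ifi44, chr3:151749911-151750000, minus strand: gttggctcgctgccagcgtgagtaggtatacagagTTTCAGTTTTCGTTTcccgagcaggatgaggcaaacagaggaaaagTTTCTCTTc

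Rsad2 held the full ISRE, from position -120 to -111 before its start, with a further short site from -106 to -99. Ifi44 held 3 short sites, Lgals3bp 1 at -14 to -7, and Xaf1 1 upstream of its start and 1 at 11 to 18 after it. Positions count from the RefSeq start, which for Lgals3bp and Ifi44 lies inside the GENCODE span given above. The whole Lgals3bp stretch and part of the Ifi44 stretch therefore fall within those spans. The windows of Cmpk2 and Rnf213 held none of these letters, and no window of the 6 held a GAS. Among all 32851 promoters of the same length, 3.44% held the ISRE, 23.9% the short site and 8.30% the GAS. A match is a description of letters, and no match says only that they are not in this window.

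The matrices hold 19159 barcodes labelled KO and 18228 labelled WT, with totals of 131196245 and 127429919 unique molecular identifiers (UMIs, counted molecules) and medians of 3975 and 3597 per barcode. After filters and removal of called doublets, 17117 KO and 16460 WT cells were kept, and 85 kept barcode sequences occurred in both libraries. Cells were clustered without the 8 genes and without other interferon genes. Clusters were named from marker genes into 11 classes, while 34.2% of KO and 41.7% of WT cells stayed unnamed. Despite the CD11b enrichment, endothelial-like, mural-like, astrocyte-like and other classes were large. Microglia-like cells, in clusters 3, 4 and 5, numbered 4075 KO and 3583 WT. They held all 10 microglial markers, at a summed 16844 and 16508 CPM (UMIs of a gene per 1000000 UMIs of the class). Cd200r1, the targeted gene, had 1418 UMIs (12.1 CPM) in all kept KO cells and 1488 UMIs (12.8 CPM) in WT cells, a ratio of 0.944 (0.877 to 1.02), and 21.3 and 23.1 CPM in microglia-like cells. These 3′ tags may lie outside the deleted part, so Cd200r1 does not check the labels.

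In microglia-like cells every one of the 8 genes was higher in the KO library, and 5 of 8 were past 1.5-fold, counted on CPM plus 10 with at least 20 UMIs over both libraries. The 5 were Rtp4, Ifi27l2a, Xaf1, Lgals3bp and Rnf213. Among all 16090 genes measured there, 0.460% were past the same fold and 0.162% were past it in the other direction, and since the genes were chosen on this contrast nothing is read from that. Their median log2 ratio on this scale was 1.27, beside 0.001 over all genes. In rank of that ratio Rtp4 was 1st, Ifi27l2a 2nd, Xaf1 5th, Lgals3bp 13th and Rnf213 14th, whereas Rsad2, Cmpk2 and Ifi44 ranked 84, 154 and 299. The last 3 are scarce in microglia, and the added 10 CPM shrinks their ratios.

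Rtp4, the receptor chaperone, reached 130 CPM (126 to 133) in KO microglia-like cells, against 20.6 CPM (19.2 to 22.1) in WT, from 5380 and 814 UMIs. The ratio was 6.30 (5.85 to 6.79), and 57.3% of KO and 14.5% of WT cells held a UMI. Its ratios in the 3 microglial clusters were 6.22, 6.52 and 6.08, so no cluster stood apart. Across the other 10 classes the ratio ran between 2.61 in B cell-like and 9.82 in monocyte-like cells, and every interval lay above 1. The highest level in either library was in endothelial-like cells, with 232 CPM in KO and 79.6 CPM in WT. In the KO library neutrophil-like cells followed at 202 CPM with an overlapping interval, and B cell-like cells were lowest at 28.2 CPM, against 10.8 CPM in WT. Monocyte-like cells had 170 CPM in KO (242 UMIs) and 17.3 CPM in WT (25 UMIs), so that they ranked 3 of 11 classes in KO and 9 of 11 in WT.

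Ifi27l2a, the small ISG12 protein, was at 577 CPM (569 to 584) in KO and 123 CPM (119 to 126) in WT microglia-like cells, a ratio of 4.70 (4.56 to 4.85). A UMI was seen in 85.5% of KO and 41.3% of WT cells. Several other leukocyte classes of the KO library held more of it than microglia-like cells did. Monocyte-like cells had 2751 CPM in KO and 306 CPM in WT, B cell-like cells 2353 and 182 CPM, and neutrophil-like cells 2130 and 147 CPM, with ratios of 8.99, 12.9 and 14.5. T cell-like cells differed least, with 1143 CPM in KO and 612 CPM in WT (ratio 1.87, 1.72 to 2.03). They were the highest class of the WT library, with an interval apart from the next, and the fourth of the KO library. Ependymal or choroid plexus-like cells were lowest in WT at 49.5 CPM, against 464 CPM in KO, a ratio of 9.37 (7.89 to 11.2).

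Xaf1, the XIAP antagonist, was at 87.7 CPM (84.8 to 90.6) in KO microglia-like cells, from 3633 UMIs, and between 21.5 and 24.6 CPM in WT cells, from 909 UMIs (ratio 3.81, 3.54 to 4.10), and 48.9% and 17.9% of cells held a UMI. Endothelial-like cells were highest in both libraries, with 256 CPM in KO and 101 CPM in WT, apart from the next class in each. Ratios ran between 2.11 in macrophage-like cells of the brain's borders (CNS-associated macrophages) and 6.63 (3.03 to 16.0) in B cell-like cells, where it rests on 27 KO and 9 WT UMIs.

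Lgals3bp, the secreted galectin-3 binder, was the member with the narrowest range of ratios. It reached 278 CPM in KO and 109 CPM in WT microglia-like cells (ratio 2.56, 2.47 to 2.65), with 76.7% and 47.7% of cells positive. CNS-associated macrophage-like cells had 287 and 119 CPM, overlapping microglia in both libraries, and together they were the highest classes of each. Mural-like cells gave the lowest ratio, 2.17, and monocyte-like cells the highest, 3.65. Within microglia its ratio was 3.37 in cluster 3, 2.75 in cluster 4 and 2.21 in cluster 5, with intervals that do not overlap.

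Rnf213, the ubiquitin ligase, had 152 CPM in KO and 57.6 CPM in WT microglia-like cells (ratio 2.65, 2.52 to 2.78), and 56.9% and 33.1% of cells held a UMI. Monocyte-like cells were highest in KO at 305 CPM, against 73.6 CPM in WT, a ratio of 4.14. In WT the leading classes, endothelial-like at 83.1 CPM, CNS-associated macrophage-like at 81.8 CPM and monocyte-like at 73.6 CPM, had overlapping intervals. B cell-like cells did not pass the fold, with 62.9 CPM in KO and 42.2 CPM in WT (ratio 1.49, 0.897 to 2.44).

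Rsad2, the viperin gene, was scarce in microglia-like cells, at 11.8 CPM (489 UMIs) in KO and 4.94 CPM (195 UMIs) in WT. Its ratio there was 2.39 (2.02 to 2.84). Neutrophil-like cells were its leading KO class, with 216 CPM and a UMI in 75.3% of 89 cells, against 17.3 CPM and 13.6% of 177 cells in WT. That ratio of 12.5 (9.04 to 17.5) was its highest, and the KO interval lay apart from the next class, endothelial-like cells, with 118 CPM in KO and 52.9 CPM in WT. In WT the order differed: endothelial-like cells led, and neutrophil-like cells overlapped monocyte-like cells, which had 90.1 CPM in KO and 20.1 CPM in WT. Astrocyte-like cells gave 20.1 CPM in KO and 16.2 CPM in WT, a ratio of 1.25 (0.851 to 1.85) that does not exclude 1.

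Cmpk2, the mitochondrial kinase next to Rsad2, was lowest of all classes in microglia-like cells, at 5.98 CPM (248 UMIs) in KO and 2.43 CPM (96 UMIs) in WT, a ratio of 2.46 (1.94 to 3.15). Endothelial-like cells were highest, with 69.9 CPM in KO and 25.8 CPM in WT, followed by neutrophil-like cells with 49.8 and 13.8 CPM. The ratio passed the fold in 4 of 10 measured classes, and its interval lay above 1 in 8 of 11 classes. The interval included 1 in astrocyte-like (1.34, 0.894 to 2.06) and CNS-associated macrophage-like cells (1.44, 0.887 to 2.37). It also included 1 in fibroblast-like cells, with 24.6 CPM in KO and 13.3 CPM in WT.

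Ifi44 was highest in endothelial-like cells of both libraries, apart from the next class. They had 129 CPM in KO and 26.4 CPM in WT (ratio 4.88, 4.44 to 5.38), and fibroblast-like cells were next with 62.3 and 13.3 CPM. Microglia-like cells had 3.11 CPM (129 UMIs) in KO and 1.11 CPM (44 UMIs) in WT, a ratio of 2.80 (1.97 to 4.03). Monocyte-like cells held 53 UMIs in KO and 1 in WT, a ratio of 53.8 whose interval of 9.24 to 2164 fixes little beyond its direction. T cell-like cells had 35.0 CPM in KO and 4.95 CPM in WT, and neutrophil-like cells 8.59 and 3.85 CPM with an interval that includes 1.

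**Figure D1:**
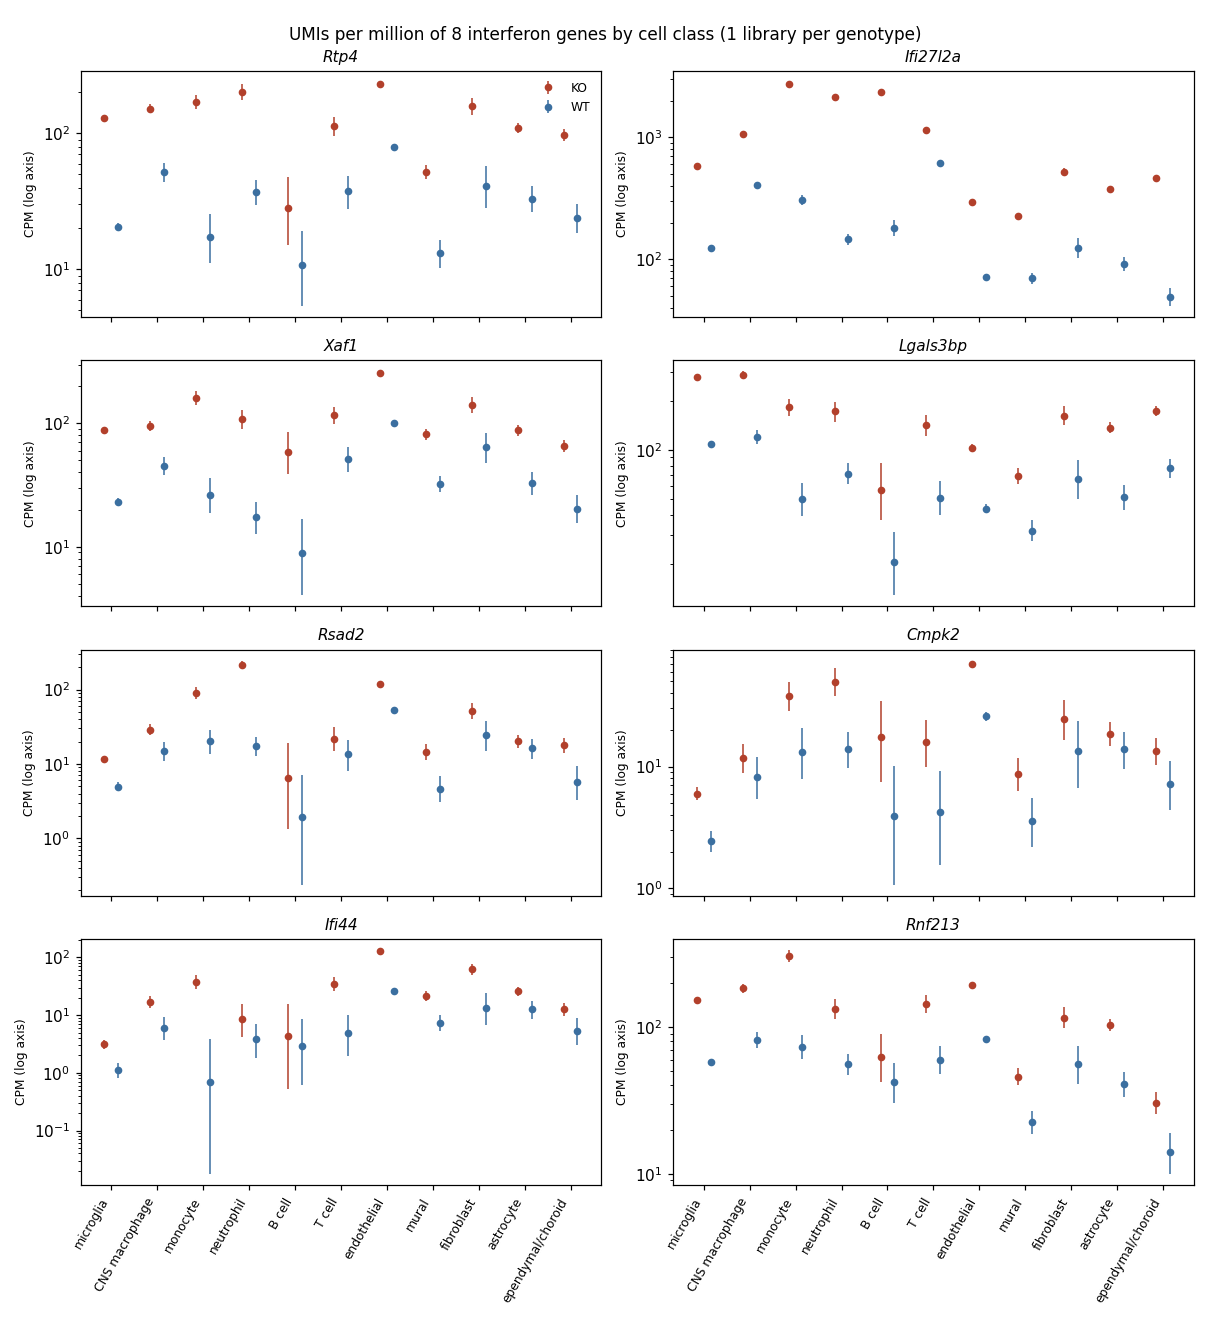
Level of each gene in 11 cell classes, in CPM on a log axis, with exact 95% Poisson intervals, KO left of WT. KO lies above WT in every class for all 8 genes, while the leading class differs by gene: endothelial-like for Rtp4, Xaf1, Cmpk2 and Ifi44, monocyte-like for Ifi27l2a and Rnf213, neutrophil-like for Rsad2 and CNS-associated macrophage-like for Lgals3bp in the KO library.

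Over the 11 classes, 85 pairs of gene and class had enough UMIs. Of these, 72 were at least 1.5-fold higher in KO and 0 were lower past the fold. Counted over all 88 pairs, including those under the UMI minimum, 79 ratio intervals lay above 1. Rtp4, Ifi27l2a, Xaf1 and Lgals3bp passed in 11 of 11 classes, Rnf213 in 10 of 11, Rsad2 and Ifi44 in 7 of 10 and Cmpk2 in 4 of 10. In monocyte-like cells 8 of 8 genes passed with a median log2 ratio of 2.03, where 4.76% of all genes did. Neutrophil-like cells followed with 7 of 8 and a median of 1.72, where 3.69% of all genes passed. Endothelial-like cells had 8 of 8 and 1.21, with 0.654% of all genes. The count was 7 of 8 in CNS-associated macrophage-like cells (median 1.00, background 0.737%), T cell-like cells (1.08, 6.31%), mural-like cells (0.89, 1.12%) and fibroblast-like cells (1.10, 6.14%). The CNS-associated macrophage-like class was cluster 16 alone. Cluster 10 (608 KO and 362 WT cells), led by MHC class II genes and with 3 CNS-associated macrophage markers, stayed unnamed. It had 5 of 8 and a median of 0.90, where 70 of 12312 genes passed. Astrocyte-like cells had 6 of 8 (1.18, 2.56%) and ependymal or choroid plexus-like cells 6 of 8 (0.94, 1.17%). B cell-like cells had 4 of 5 measured, with a background of 6.59%. The B cell-like median of 0.93 was taken over all 8 genes, including those under the UMI minimum. Summed over all kept cells, 8 of 8 genes passed (median 1.21), where 0.406% of all genes were higher and 0.245% lower past the fold. Genes lower past the fold, none of them among the 8, made up 2.99% of all genes in monocyte-like, 8.93% in neutrophil-like, 0.289% in endothelial-like, 2.08% in CNS-associated macrophage-like and 1.98% in T cell-like cells. They made up 0.397% in mural-like, 5.27% in fibroblast-like, 2.48% in astrocyte-like, 1.06% in ependymal or choroid plexus-like and 15.2% in B cell-like cells. Medians over all genes ran between -0.101 and 0.058. With cells that held leading markers of other classes left out, fewer of the 8 genes had enough UMIs. Then 2 of 3 measured passed in astrocyte-like, 3 of 4 in ependymal or choroid plexus-like and 4 of 4 in mural-like cells, where 20.8%, 12.5% and 13.8% of all genes did. The leading choroid plexus markers, Ttr among them, were not used to leave out cells of other classes, so cells with free Ttr RNA stayed in. With 50 CPM added, 3 of 8 passed in mural-like cells, where 0.198% of all genes did. At 2000 UMIs per cell, 4 of 6 measured passed in CNS-associated macrophage-like and 1 of 2 in B cell-like cells, where 5.55% and 12.7% of all genes did. All of these values describe 1 library against another, and the difference in ratio between classes was not tested.

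Free RNA from burst cells reaches every droplet, and no class is known to lack interferon genes. Microglial markers, with 10 of 10 detected in every class and library and none at 0, stood at 7.11% of their microglial level in KO and 6.77% in WT endothelial-like cells. They were higher in the KO than in the WT library in CNS-associated macrophage-like (64.5% and 53.3%), T cell-like (24.2% and 14.4%), fibroblast-like (21.6% and 11.6%) and astrocyte-like cells (34.5% and 24.5%). In monocyte-like cells they stood at 35.4% and 34.6%, in neutrophil-like cells at 59.6% and 58.8%, in B cell-like cells at 12.2% and 16.8%, in mural-like cells at 13.4% and 15.9% and in ependymal or choroid plexus-like cells at 15.4% and 16.8%. Ependymal or choroid plexus markers, led by the abundant choroid plexus gene Ttr, were higher in the KO library in all 10 other classes. Of 11 such markers 10 or 11 were detected, with Foxj1 at 0 in KO T cell-like and WT fibroblast-like cells. Summed, they reached 3125 CPM in KO and 2042 CPM in WT microglia-like cells, 4603 and 2464 CPM in endothelial-like, 2584 and 1723 CPM in monocyte-like, 6404 and 1915 CPM in neutrophil-like and 6908 and 3340 CPM in B cell-like cells. In CNS-associated macrophage-like cells they reached 4337 and 2339 CPM, in T cell-like 5538 and 3281 CPM, in mural-like 10135 and 5751 CPM, in fibroblast-like 5736 and 4671 CPM and in astrocyte-like 10479 and 6759 CPM. The part of free RNA from any of these sources in the ratios of the 8 genes was not tested.

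**Figure D2:**
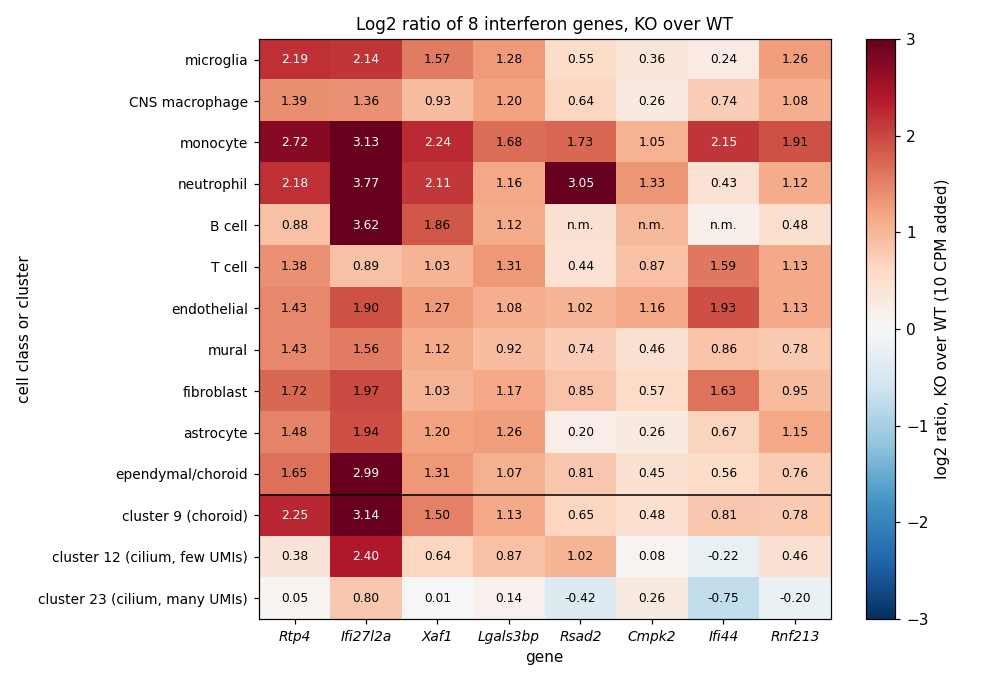
Log2 ratio of KO to WT (CPM plus 10) for each gene in 11 classes and in clusters 9, 12 and 23, with colour limited at 3 and n.m. for pairs with under 20 UMIs. The classes are above 0 throughout, highest for Ifi27l2a in neutrophil-like cells, and cluster 23 is near 0 or below for all but Ifi27l2a and Cmpk2.

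The share of positive cells was also taken at equal depth, with each cell thinned to 2000 UMIs, since WT microglia-like cells were deeper (median 6838 UMIs in KO, 8169 in WT). Of these, 193 KO and 296 WT cells under 2000 UMIs were left out. Ifi27l2a was then seen in 59.1% of KO and 16.0% of WT cells, Lgals3bp in 38.4% and 16.4%, Rnf213 in 22.7% and 9.95%, Rtp4 in 22.2% and 3.99%, and Xaf1 in 17.0% and 4.35%. Rsad2 (2.04% and 0.761%), Cmpk2 (1.21% and 0.426%) and Ifi44 (0.721% and 0.152%) were rare in both. Genes that microglia should lack gave very different shares in the same cells. The T cell gene Cd3e was seen in 0 of 3882 KO and 0 of 3287 WT cells. The endothelial gene Cldn5 was seen in 4.64% of KO and 6.78% of WT cells, and Ttr in 97.6% of KO and 94.4% of WT cells. Shares of Rsad2, Cmpk2 and Ifi44 in both libraries, and of Rtp4 and Xaf1 in WT, lie above that of Cd3e but under that of Cldn5. They are not read as expression, though this cut depends on the gene taken for it. The other shares lie between those of Cldn5 and Ttr, so a share alone does not separate expression from free RNA for any of the 8 genes. Without thinning, Cldn5 was in 16.3% of KO and 23.2% of WT microglia-like cells. Ifi27l2a had 1.91 UMIs per positive thinned cell in KO and 1.48 in WT.

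The 8 genes were also counted together per thinned cell. KO microglia-like cells held a mean of 1.63 of the 8 genes and WT cells 0.521. None of the 8 was seen in 13.3% of KO and 60.7% of WT cells. At least 2 were seen in 52.0% (50.4 to 53.5) of KO and 9.83% (8.83 to 10.9) of WT cells. The same share was 63.4% and 25.7% in CNS-associated macrophage-like, 43.6% and 19.0% in T cell-like and 64.7% and 21.8% in endothelial-like cells.

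**Figure D3:**
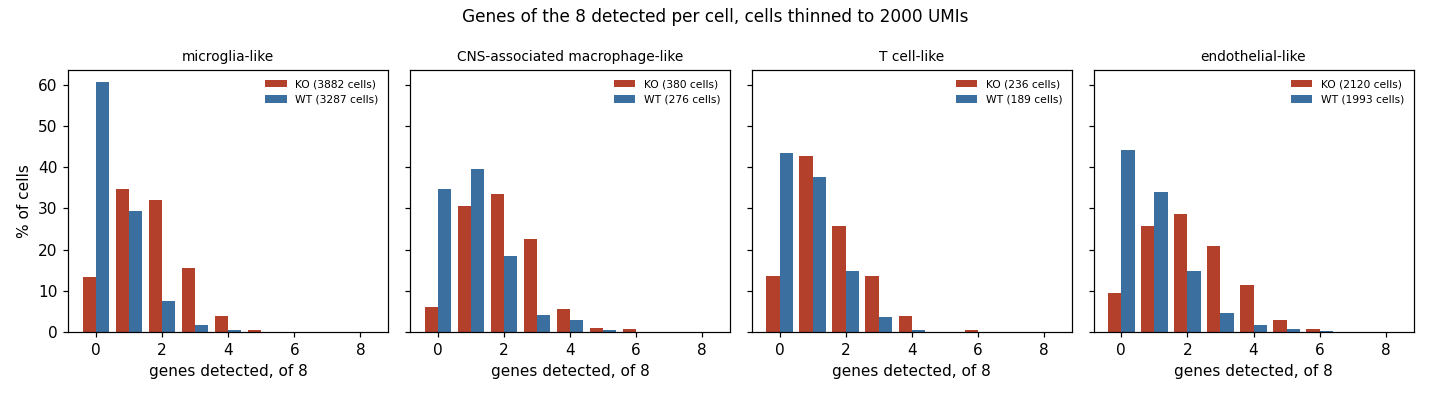
Share of cells, in percent, by how many of the 8 genes were detected in a cell thinned to 2000 UMIs, for 4 classes, KO bars left of WT bars. In microglia-like cells 13.3% of KO and 60.7% of WT cells had none, and the KO bars lie to the right in all 4 classes.

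Detection of pairs in the same cell was set against the number that independent detection would give. Among Rtp4, Ifi27l2a, Xaf1, Lgals3bp and Rnf213 the observed number was 0.988 to 1.14 times that number in the 10 pairs of KO microglia-like cells, and 1.34 to 2.63 times in WT cells. Ifi27l2a and Lgals3bp, for example, were found together in 917 KO cells where 881 were computed (1.04), and in 128 WT cells where 86.4 were computed (1.48). The highest value that this measure can take falls as the commoner gene is seen in more cells, which holds for the KO library, and so the libraries are not ranked by it.

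Cells were also grouped by their UMIs of the 46 other type I interferon genes listed under processing, of which thinned microglia-like cells held a mean of 6.28 in KO and 2.80 in WT. In cells with 11 or more, 433 KO cells (11.2%) and 69 WT cells (2.10%), the levels were close: Rtp4 193 and 210 CPM, Ifi27l2a 710 and 703 CPM, Xaf1 130 and 130 CPM, Lgals3bp 314 and 304 CPM and Rnf213 264 and 283 CPM. The intervals of both libraries overlapped for each of these 5 genes. Rsad2 had 34.6 CPM in KO (30 UMIs) and 145 CPM in WT (20 UMIs) in that group, and 7 of the WT UMIs came from a single cell. In cells with 3 to 5 such UMIs (37.2% of KO and 32.8% of WT cells), Rtp4 was at 120 CPM in KO and 23.2 CPM in WT, and Ifi27l2a at 511 and 124 CPM. In cells with 1 or 2 (9.76% and 44.8%), Rtp4 was at 98.9 and 8.83 CPM and Ifi27l2a at 450 and 75.0 CPM. Rnf213 was at 106 and 53.4 CPM in cells with 3 to 5 and at 85.8 and 43.1 CPM in cells with 1 or 2, and the KO interval lay above the WT interval for all 5 genes in both groups. In cells with 6 to 10 the intervals were apart for 4 of the 5 genes and overlapped for Rnf213 (152 CPM in KO, 113 CPM in WT). In cells with none, 36 KO and 403 WT cells, Xaf1, Lgals3bp and Rnf213 overlapped, at 2, 11 and 4 KO UMIs. Counts of few UMIs per cell sort cells loosely, and both measures share the cell.

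**Figure D4:**
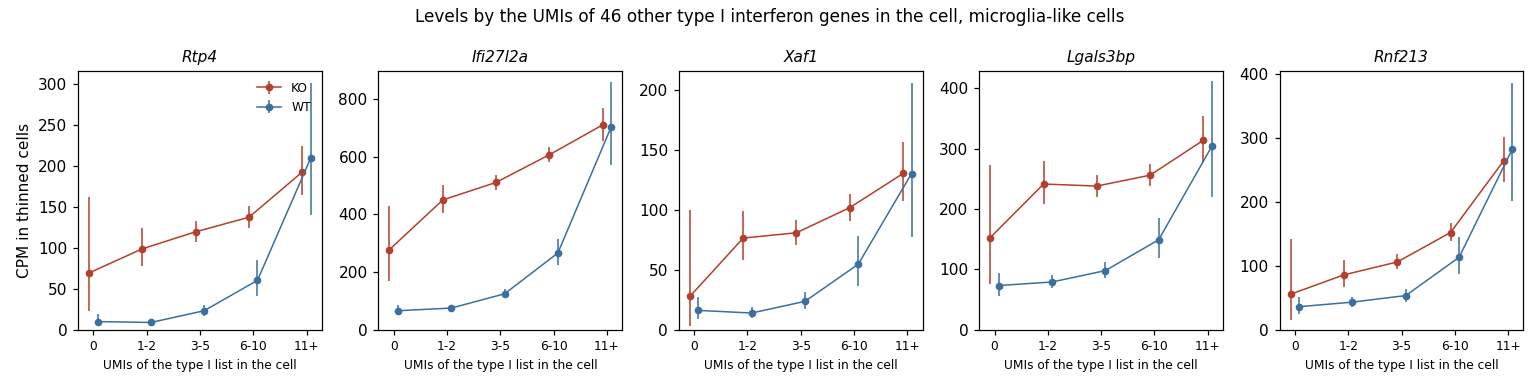
Level of 5 genes in CPM, with exact 95% Poisson intervals, in thinned microglia-like cells grouped by their UMIs of 46 other type I interferon genes, KO left of WT. The libraries meet in the group with 11 or more UMIs, at 193 and 210 CPM for Rtp4, and the KO interval lies above the WT interval for all 5 genes in the groups with 1 to 2 and 3 to 5 UMIs.

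Other genes of the pathway were read from fixed lists in microglia-like cells. Of 46 type I interferon genes, 32 were past the fold in KO and 0 lower, with a median log2 ratio of 0.87. Over all genes measured there, 0.460% were higher and 0.162% lower past the fold. At the top were Oasl2, an oligoadenylate synthetase-like gene, with 68.1 CPM in KO and 14.9 CPM in WT (1.65), and Slfn2 of the Schlafen family with 153 and 43.3 CPM (1.61). The lowest on this scale was Oas3 (0.14), at 1.74 CPM in KO and 0.683 CPM in WT. Oas3 is scarce, and its ratio without the added 10 CPM was 2.54 (1.61 to 4.12). Of 18 type II-leaning genes, 4 passed, with a median of 0.30: Nlrc5, an activator of MHC class I genes, had 0.81 and the GTPase gene Irgm1 0.78, whereas Ciita, the class II activator, had -0.02 and Gbp7 0.05. In endothelial-like cells 12 of 17 of these type II-leaning genes passed (median 0.67), where 0.654% of all genes did. Monocyte-like cells had 11 of 14 (0.81, all genes 4.76%) and fibroblast-like cells 10 of 15 (0.68, 6.14%). In CNS-associated macrophage-like cells 2 of 18 passed (0.12, 0.737%). The remaining classes had between 1 of 16, in mural-like cells, and 3 of 16, in neutrophil-like cells.

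Of 17 genes of interferons and their receptors, 9 had enough UMIs in microglia-like cells and 0 passed (median 0.03). The receptor gene Ifnar1 was at 39.8 CPM in KO and 38.8 CPM in WT, and Ifnar2 at 257 and 246 CPM. The type II receptor gene Ifngr1 had -0.20 with 388 and 446 CPM, and Jak2 had 0.13. Ifnb1, which encodes interferon beta, had 67 UMIs in KO and 5 in WT, from 8 and 2 cells, and 52 of the KO UMIs came from a single cell. Of 7 negative feedback genes, 2 passed (median 0.13): Usp18, which removes ISG15 and blocks the receptor, had 36.1 CPM in KO and 9.90 CPM in WT (1.21), and Trim30a 1.09. Of the genes named like the 8, 9 had enough UMIs and 0 passed (median 0.04). Ifi27, of the same ISG12 family as Ifi27l2a, had 141 CPM in KO and 101 CPM in WT (0.45), and Lgals3, encoding galectin-3, had -0.33. Of 10 genes listed as references of even level, 0 passed (median -0.01). Among them B2m, the MHC class I light chain, was not even, and was highest at 0.31.

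Cluster 23 was led by genes of motile cilia, and was left unnamed because 4 astrocyte markers passed the naming rule beside 6 ependymal or choroid plexus markers. It had 199 KO and 108 WT cells at medians of 18612 and 19381 UMIs. There 1 of the 8 genes was past the fold higher, where 0.534% of all genes were, and 1 lower, where 0.326% were, with a median log2 ratio of 0.03. Ifi27l2a was higher with 85.8 CPM in KO and 44.9 CPM in WT (1.91, 1.56 to 2.34). Rtp4 had 81.5 and 78.2 CPM (1.04, 0.881 to 1.24), Xaf1 66.5 and 65.7 CPM, Lgals3bp 55.9 and 49.6 CPM and Rnf213 41.4 and 49.0 CPM. Ifi44 was lower, at 34.3 CPM in KO and 64.4 CPM in WT (0.532, 0.427 to 0.663), and Rsad2 had 56.6 and 78.8 CPM (0.718, 0.598 to 0.863), short of the fold. Microglial markers stood at 4.03% of their microglial level in KO and 4.05% in WT, and haemoglobin and other erythroid markers at 964 CPM in KO and 12.4 CPM in WT. The part of the erythroid RNA in these ratios was not tested.

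The ependymal or choroid plexus-like class joined a choroid plexus cluster and a cilium cluster of few UMIs. In cluster 9, with choroid plexus genes (552 KO and 425 WT cells), Rtp4 had 88.0 CPM in KO and 10.7 CPM in WT (8.26), and Ifi27l2a 444 and 41.4 CPM (10.7). In cluster 12, with cilium genes (677 and 256 cells), Rtp4 had 127 and 94.8 CPM (1.34, 0.938 to 1.94) and Ifi44 21.7 and 27.1 CPM (0.802, 0.383 to 1.77), while Ifi27l2a had 530 and 92.5 CPM (5.73). The median log2 ratio of the 8 genes in cluster 12 was 0.55, beside -0.026 over all genes. Microglial markers in cluster 12 stood at 33.8% of their microglial level in KO and 34.2% in WT. For Rtp4 the intervals of clusters 12 and 23 include 1, and neither reaches the lower bound of the choroid plexus cluster (5.49).

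Likeness between genes was described by Pearson's r of log2(CPM plus 10) over 22 sums, 11 classes in each library, which share the library, its depth and its free RNA. Rsad2 and Cmpk2, the neighbours on chromosome 12, were each other's most alike gene (0.910). Rtp4 was most like Usp18 (0.929), Oasl2 (0.902) and Eif2ak2 (0.901), and Xaf1 like Isg15 (0.928), Usp18 (0.927) and Irf9 (0.922). Rnf213 was most like Parp14 (0.943), Oas1a (0.927) and Herc6 (0.926), and Ifi44 like Ifit1 (0.899), Ifit3 (0.861) and Gbp3 (0.858). Ifi27l2a went with Zbp1 (0.912), Phf11b (0.867) and BC147527 (0.821). Lgals3bp was most like the endoplasmic reticulum gene Pdia3 (0.867), then Npl (0.821) and Eif2ak2 (0.793). Among the 8 genes themselves r ran between 0.175 for Ifi27l2a with Ifi44 and 0.910.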

How the data were processed

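Both deposited matrices are tables of UMI counts, not normalized, with a gene and a barcode for each count. Per the submitters' processing notes, Cell Ranger 7.0.1, STAR, Seurat 3.1.1 and the build GRCm38/mm10 were used; the annotation and strand setting are not given in the sources used here. The 8 genes and the lists were chosen with earlier results of these data known.

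Barcodes needed 300 genes and 500 UMIs, with no more than 10% of UMIs from mitochondrial genes (17659 KO and 16601 WT). Scrublet calls (expected 0.8% per 1000 barcodes) removed 542 (3.07%) and 141 (0.849%), so doublets remain. Counts scaled to 10000 per cell and logged were clustered jointly with scanpy 1.11.5 on 2000 variable genes, without the 8 genes, other interferon genes, sex-linked and mitochondrial genes and Cd200r1, with 30 principal components, 15 neighbours and Leiden resolution 1. A cluster was named from at least 3 markers (25% of cells, log2 fold of 1). After the data were seen, naming was tightened: clusters whose leading genes held as many markers of other classes, or with markers of a second class, stayed unnamed.

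UMIs were summed per library and class with at least 50 cells in each library. Intervals are exact Poisson (CPM), Clopper-Pearson (shares) and conditional binomial (ratios). The scripts were tested on simulated data. All 8 genes are named, with up to 2 genes at each end of each list in microglia-like cells and the 3 genes most like each of the 8. For likeness, genes needed 20 UMIs in 75% of sums or 200 UMIs in all. The type I list held Isg15, Ifit1, Ifit2, Ifit3, Ifit3b, Oasl1, Oasl2, Oas1a, Oas1g, Oas2, Oas3, Irf7, Irf9, Stat2, Usp18, Bst2, Ifitm3, Eif2ak2, Ddx58, Ifih1, Dhx58, Parp9, Parp14, Dtx3l, Herc6, Trim25, Trim30a, Slfn2, Slfn5, Ifi35, Ifi47, Ifi204, Ifi207, Ifi213, Phf11b, Phf11d, Zbp1, Samd9l, Sp100, Epsti1, Uba7, Ube2l6, Tor3a, Helz2, Cxcl10 and 1 gene that is not reported here. Alternatives changed the added CPM, centring, cell filters, doublet removal, clustering genes, naming, depth and UMI minimum.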

Additional observations from a re-analysis of the deposited data

Results flagged for a closer look

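Ifi44 and Rsad2 were lower in KO than in WT in cluster 23, with ratios of 0.532 and 0.718, whereas both were higher in microglia-like and endothelial-like cells. They stand here because their direction is opposite between cell groups. The difference was not tested, with 1 library per group.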

How the results depend on the processing

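No paired analysis was possible because each group has 1 library and no test was made. In microglia-like cells 5 of the 8 genes passed the fold with 10 CPM added, and 8 did with 1 CPM. Genes past the fold there numbered 189 with 1 CPM and 27 with 50 CPM, against 74 of 16090. In cells without leading markers of other classes, choroid plexus markers aside, they numbered 566 of 8462 measured. At least 2 of the 8 genes were seen in 25.0% of KO and 4.17% of WT microglia-like cells thinned to 1000 UMIs, against 52.0% and 9.83%. Of 691 values of single genes under the alternatives, 683 kept their sign. Below 0 on the log2 scale were Rsad2 in CNS-associated macrophage-like cells with doublet calls kept (-0.04), Ifi44 in astrocyte-like (-0.23) and Rsad2 in ependymal or choroid plexus-like cells (-0.04) with classes named cell by cell, and Ifi44 (-0.79) and Rnf213 (-0.25) in ependymal or choroid plexus-like cells without leading markers of other classes. In that last setting 4 genes were measured and 0 were lower past the fold. The Ifi44 value there rests on under 20 UMIs over both libraries. The cause was not tested. Of the 580 values of pairs past the fold, 553 stayed past it. Mice, dissociation and library preparation cannot be told apart from genotype, and counts of few UMIs limit Rsad2, Cmpk2 and Ifi44 in microglia-like cells.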

Other observations

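In clusters left unnamed, the median log2 ratio of the 8 genes was 1.28 in cluster 0, of 1628 KO and 2095 WT cells with few UMIs, beside 0.019 over all genes. It was 1.28 in cluster 6, of 565 KO and 910 WT cells, beside 0.006, and 1.13 in cluster 8, of 690 and 396 cells, beside 0.002. It was 0.62 in cluster 20, of 118 KO and 259 WT cells, beside -0.026, and lowest in cluster 23, at 0.03 beside 0.003. Cxcl9, a chemokine gene of the type II list, had 289 UMIs in KO and 36 UMIs in WT microglia-like cells, and 188 of the KO UMIs came from a single cell. Cxcl9 and the clusters here were chosen after their values were seen.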
